A study of Mus musculus with 721 samples.

Results

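Myc, Mycn and Max are 3 of the 24483 genes counted in single cells of the early mouse embryo, and they were taken by their gene symbols and not by their values. Myc and Mycn encode closely related basic helix-loop-helix leucine zipper transcription factors. Neither binds DNA alone. Max is the obligate partner of both, and the Myc-Max and Mycn-Max heterodimers bind E-box sequences and activate genes of ribosome biogenesis, metabolism and cell cycle entry. Max also pairs with the repressors of the Mxd group, with Mnt and with Mga, which compete with Myc for it. In the early embryo the amount of Myc protein is known to mark fitter cells in cell competition, and Mycn is required later than the stages sampled here for growth of several organs. The question asked of these data was which paralog each stage and lineage used, and whether single cells carried transcripts of Myc, of Mycn or of both.

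The cells came from wild-type C57Bl/6Babr mouse embryos at 3.5, 4.5, 5.5 and 6.5 days of development, with no treatment, transgene or mutant allele in any group, and polyA RNA was sequenced with the SMART-seq2 step of G&T-seq, which amplifies full-length cDNA without molecular identifiers. Trophectoderm had been removed by immunosurgery at E3.5 and E4.5. At E5.5 the dissection took off the extraembryonic ectoderm, and visceral endoderm was kept and plated apart from the epiblast. At E6.5 the extraembryonic tissues were dissected away before the cells were dissociated. Of 721 wells, 99 were from E3.5, 105 from E4.5, 267 from E5.5 and 250 from E6.5, and 128 wells were titled as holding doubles. The cells carried 37 embryo labels: 10 at E3.5 (where 9 cells without an embryo number were counted as 1 label), 5 from E4.5, 9 from E5.5, and 13 from E6.5 embryos, of which 2 were titled E6.75 but labeled E6.5. These are more labels than the embryos the study counts. The 4 E6.5 labels without a plate name may not be further embryos, and the unnumbered E3.5 cells may not be another one, so that the number of replicates given below may be too high at these stages. Read counts ran from 66896 to 3792936 per cell with a median of 692863.

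Cells were placed in classes by clustering all cells, and the E6.5 cells again on their own, and by markers within a stage, and the 132 genes of the Myc lists used below were held out of the clustering. The classes were E3.5 ICM (inner cell mass, 99 cells), E4.5 epiblast-like (23), E4.5 primitive endoderm-like or PrE-like (82), E5.5 epiblast-like (259), E5.5 endoderm-like (8, with 5 of 5 cells titled visceral endoderm), E6.5 epiblast-like (179), E6.5 primitive streak-like (25) and E6.5 endoderm-like (42), with 4 cells left unnamed. The 20 endoderm markers summed to 13977 to 25788 CPM (read counts scaled to a common library total) in E4.5 PrE-like sums and to 12170 to 33481 CPM in E6.5 endoderm-like sums, against 615 to 4922 CPM in the epiblast-like classes of all 3 stages. The 12 preimplantation epiblast markers summed to 3905 to 5166 CPM in E4.5 epiblast-like sums and to 857 to 1645 CPM in PrE-like sums. Of the 82 PrE-like cells, 16 came from a cluster (cluster 8) whose 10 leading genes, among them Dppa3, Klf5 and Tfcp2l1, hold no endoderm marker, and which also held E3.5 cells. These 16 were kept because their mean endoderm marker level was above that of epiblast markers, which held in 12 of the 16 singly against 64 of the other 66 PrE-like cells, and Ward clustering placed 4 of them with the epiblast. The results for PrE-like sums are therefore also given without these cells, an alternative chosen after seeing the data. Trophoblast markers reached 1084 CPM in E3.5 sums, 1048 CPM of it Tex19.1 in embryo 2 on P8. Blood markers stayed at or below 126 CPM except in the E6.5 endoderm-like sum of embryo 6 on P2, where they summed to 1045 CPM, 816 CPM of it Hba-a1. Mycn in that sum, at 140 CPM, lay inside the range of the other E6.5 endoderm-like sums. The part of such reads in the results was not tested.

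The embryo was the replicate. For each embryo with at least 3 cells of a class, the counts of those cells were added up, which gave 49 sums: 10 for E3.5 ICM, 5 each for the E4.5 classes, 8 for E5.5 epiblast-like, 12 for E6.5 epiblast-like, 7 for E6.5 endoderm-like, and 1 each for the E5.5 endoderm-like and E6.5 primitive streak-like classes. A level is the CPM of a sum after TMM scaling. Statements below that groups of sums did or did not overlap describe the members only. The share of all genes without such overlap was not counted. A difference between classes passed where the edgeR quasi-likelihood test gave a Benjamini-Hochberg adjusted p of at most 0.05 over 17031 genes and an absolute log2 fold change above 1, or above 2 between the 2 lineages of E4.5.

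In GRCm38, Myc lies at chr15:61985391-61990374 on the plus strand (ENSMUSG00000022346.15), Mycn at chr12:12936093-12941914 on the minus strand (ENSMUSG00000037169.15) and Max at chr12:76937269-76962201 on the minus strand (ENSMUSG00000059436.13). Myc and Mycn overlap no other annotated gene, and Max overlaps 1 gene on its own strand. Their exons cover 2717, 3295 and 3598 bases, and levels of different genes are compared below only per kilobase of exon. The promoter windows of Mycn and Max are shown because each holds a motif that bears on Myc biology, and both are given from RefSeq for GRCm38.p6 as the 160 bases directly upstream of the annotated gene start, on the minus strand. Capitals mark TTTGGCGC, a motif of the E2F type, in Mycn, and CACGTG, the E-box that Myc-Max dimers bind, in Max.
Mycn, chr12:12941915-12942074: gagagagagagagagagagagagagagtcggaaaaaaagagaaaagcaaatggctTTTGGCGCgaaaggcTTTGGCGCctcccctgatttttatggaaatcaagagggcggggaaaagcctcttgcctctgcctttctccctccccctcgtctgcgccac
Max, chr12:76962202-76962361: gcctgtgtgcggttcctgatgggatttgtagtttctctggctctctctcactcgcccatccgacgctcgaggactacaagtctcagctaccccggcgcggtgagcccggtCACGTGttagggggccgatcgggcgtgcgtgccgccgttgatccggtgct
The 2 copies of TTTGGCGC in Mycn begin 105 and 90 bases upstream of the gene start, and the CACGTG in Max begins 50 bases upstream. Among 27025 RefSeq promoter windows from 250 bases before to 50 bases after the start, read on both strands, TTTGGCGC was found in 145 (0.537%) and CACGTG in 1957 (7.24%). Of the 13 genes of the Myc network 12 had a promoter entry and Myc had none, and 4 of the 12 (Max, Mlx, Mnt and Mxd4) held CACGTG while only that of Mycn held TTTGGCGC. The motifs do not overlap each other, and a match of letters is a description of the sequence and not a bound site.

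Mycn was the member whose level differed most between stages. Its mean level rose from 17.4 ± 15.2 CPM (SD, n = 10) in E3.5 ICM to 66.9 ± 49.1 CPM (n = 5) in E4.5 epiblast-like sums and 49.4 ± 22.1 CPM (n = 5) in E4.5 PrE-like sums. It was 44.5 ± 17.4 CPM (n = 8) in E5.5 epiblast-like sums and rose to 206 ± 53.6 CPM (n = 12) in E6.5 epiblast-like sums. E6.5 endoderm-like sums stood between, at 104 ± 43.9 CPM (n = 7). From lowest to highest the order was therefore E3.5 ICM, E5.5 epiblast-like, E4.5 PrE-like, E4.5 epiblast-like, E6.5 endoderm-like and E6.5 epiblast-like. Each class overlapped its neighbor in this order. The range of E6.5 epiblast-like sums met that of the earlier stages only through 1 embryo of E4.5.

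Myc showed no such course. Its levels were 31.9 ± 28.5 CPM in E3.5 ICM, 37.3 ± 10.3 CPM in E4.5 epiblast-like, 18.9 ± 9.45 CPM in E5.5 epiblast-like and 33.1 ± 21.6 CPM in E6.5 epiblast-like sums. The endoderm classes had the lowest values, with 9.70 ± 5.75 CPM in E4.5 PrE-like and 11.1 ± 10.7 CPM in E6.5 endoderm-like sums. Max, the shared partner, lay between 35.7 ± 6.59 CPM (E5.5 epiblast-like) and 72.8 ± 13.8 CPM (E4.5 epiblast-like), with 54.7 ± 31.9 CPM in E3.5 ICM, 56.0 ± 21.1 CPM in E4.5 PrE-like, 36.1 ± 18.8 CPM in E6.5 epiblast-like and 47.5 ± 20.0 CPM in E6.5 endoderm-like sums. Across the 7 comparisons below Mycn passed in 3, and Myc and Max passed in 0 of 7 each by edgeR without the embryo as a block. At an unadjusted p under 0.05 Myc had 3 and Max 1 of the 7, and by DESeq2 Myc passed in 1 and Max in 0. With the embryo as a replicate block in edgeR, Myc passed between the lineages of E4.5 and Mycn between those of E6.5.

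**Figure D1:**
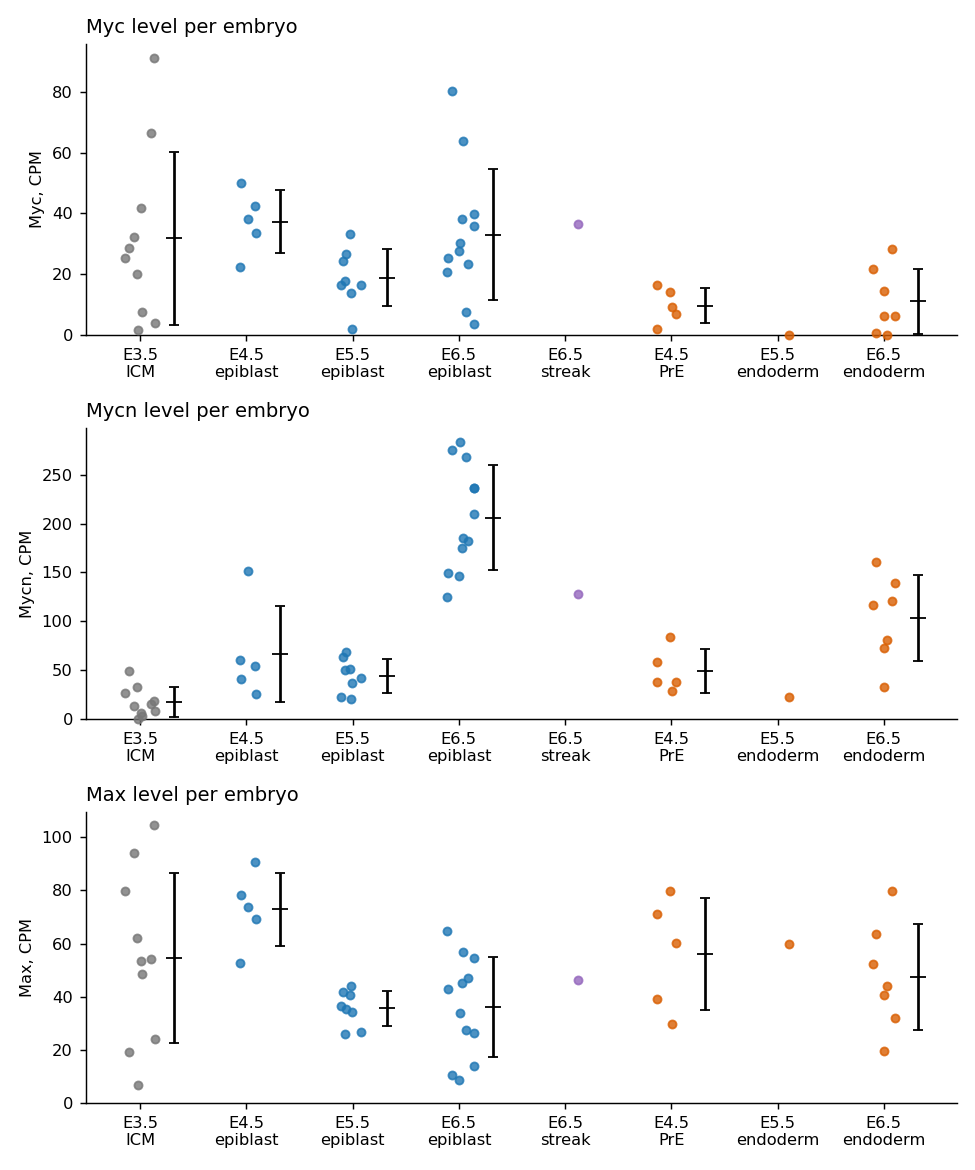
Levels of Myc, Mycn and Max in CPM after TMM scaling for each embryo sum (points), by stage and class, with the mean and SD. In the Mycn panel the 12 E6.5 epiblast-like sums lie between 125 and 283 CPM, above all 8 E5.5 epiblast-like sums. Over the 7 comparisons the groups overlap for Myc except between the E4.5 lineages, and for Max except where E5.5 is set against E4.5 in the epiblast.

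The first comparison asked what changed between the inner cell mass and the epiblast. Mycn ranged from 0 to 49.7 CPM with a median of 14.3 CPM over the 10 E3.5 ICM sums. In the 5 E4.5 epiblast-like sums it was 54.8, 151, 41.6, 25.9 and 60.8 CPM in embryos 1 to 5. The sums of 3 E4.5 embryos were above every E3.5 sum, and embryo 2 was far above the other 4. Mycn rose 3.82-fold (log2 fold change 1.93, SE 0.48, edgeR adjusted p = 0.00263), in a comparison in which 18.9% of all genes passed. Without E4.5 replicate 2 the log2 fold change was 1.39 with an adjusted p of 0.0451.

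Myc ranged from 1.61 to 91.2 CPM with a median of 27 CPM at E3.5 and was 42.4, 38.1, 50.1, 33.5 and 22.4 CPM in the E4.5 epiblast-like sums. Every E4.5 value lay inside the E3.5 range. The log2 fold change was 0.22 (SE 0.73, adjusted p = 0.964). Max ranged from 7.07 to 104 CPM with a median of 53.8 CPM at E3.5 and was 90.4, 73.7, 78.2, 69.1 and 52.7 CPM at E4.5, with a log2 fold change of 0.41 (SE 0.44, adjusted p = 0.594). In 4 of the 9 E3.5 sums with Mycn reads all of them came from 1 cell, as did all Myc reads in 3 of 10 sums, and the cell with most reads gave a median of 94.1% of a sum's Mycn reads. In E5.5 and E6.5 epiblast-like sums that median was 16.4% and 20.8%.

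The same E3.5 sums served as the reference for primitive endoderm, the lineage that lines the blastocoel and forms yolk sac endoderm. Mycn was 58.5, 28.5, 83.8, 37.8 and 38.2 CPM in the PrE-like sums of embryos 1 to 5, of which 2 were above every E3.5 sum. It rose 2.83-fold (log2 fold change 1.502, SE 0.48, adjusted p = 0.0208), against 18.1% of all genes passing. Without E4.5 replicate 3 the change was 1.23 with an adjusted p of 0.0946 and no longer passed, and without the PrE-like cells of cluster 8 it was 1.44 (adjusted p = 0.0281). Myc was 16.3, 9.31, 14.1, 1.90 and 6.88 CPM in the PrE-like sums. All 5 values lay inside the wide E3.5 range, and the log2 fold change of -1.72 (SE 0.80, adjusted p = 0.126) did not pass, while DESeq2 gave -1.78 with an adjusted p of 0.0440 and edgeR -2.39 with an adjusted p of 0.0504 without cluster 8. Max was 71.0, 29.7, 79.8, 39.2 and 60.3 CPM, with a log2 fold change of 0.03 (SE 0.45, adjusted p = 1) whose sign turned under the size factors of DESeq2.

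Between the 2 lineages of E4.5, the sums did not overlap in Myc and overlapped in Mycn. The share of all genes without such overlap was not counted. Each of the 5 embryos gave both an epiblast-like and a PrE-like sum. Myc was lower in the PrE-like sum of 5 of 5 embryos, by 15.5 to 36.0 CPM, and every PrE-like value was below every epiblast-like value. The log2 fold change was -1.94 (SE 0.88, adjusted p = 0.187) without the embryo as a block and did not pass, where 3.73% of all genes passed, and it was -2.58 (adjusted p = 0.0966) without the PrE-like cells of cluster 8. With the embryo as a replicate block it was -2.19 (SE 0.65, adjusted p = 0.0478) and passed. The block fit held these 2 classes alone with its own gene filter, so the 3.73% is not its share of all genes. Mycn was higher in the PrE-like sum in 3 embryos and lower in 2, with a log2 fold change of -0.43 (SE 0.57, adjusted p = 0.778). Max was lower in 3 embryos and higher in 2 (-0.38, SE 0.52, adjusted p = 0.789).

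From E4.5 to E5.5, as the epiblast implants, no member passed, in a comparison in which 5.30% of all genes passed. Mycn ranged from 20.8 to 68.6 CPM with a median of 46.1 CPM over the 8 E5.5 epiblast-like sums, and all but the highest E4.5 value overlapped with that range. Its log2 fold change was -0.58 (SE 0.51, adjusted p = 0.563). Myc ranged from 1.88 to 33.3 CPM with a median of 17.2 CPM, and 5 of the 8 sums were below every E4.5 epiblast-like sum (-0.98, SE 0.75, adjusted p = 0.492). Max ranged from 26.1 to 44.0 CPM with a median of 36.0 CPM, and all 8 sums were below all 5 E4.5 epiblast-like sums. The Max groups did not overlap, yet the log2 fold change of -1.03 (SE 0.46, adjusted p = 0.181) did not pass. The median of all genes in this comparison was 0.25 under TMM scaling and 0.14 under the size factors of DESeq2.

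From E5.5 to E6.5, when the epiblast begins gastrulation, Mycn rose again. It ranged from 125 to 283 CPM with a median of 197 CPM over the 12 E6.5 epiblast-like sums. All 12 were above all 8 E5.5 sums. The change was 4.63-fold (log2 fold change 2.21, SE 0.45, adjusted p = 0.000588), with 11.2% of all genes passing. Myc ranged from 3.65 to 80.3 CPM with a median of 29.0 CPM, and 5 of 12 sums were above every E5.5 sum (0.81, SE 0.63, adjusted p = 0.454). Max ranged from 8.81 to 64.6 CPM with a median of 38.4 CPM, around the E5.5 range on both sides (0.02, SE 0.37, adjusted p = 1).

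Plates moved with stage. The plate name P11.P6.P10 was shared by E3.5 and E5.5, and on it the E3.5 cells without an embryo number had 5.91 CPM of Mycn and E5.5 embryos 7 and 8 had 20.8 and 22.6 CPM, the lowest E5.5 values. The name P1 recurred at each stage from E4.5 on and P2 at E4.5 and E6.5, and the labels do not say whether a name marks the same plate at each stage. On plates named P1 Mycn was 51.2 CPM in the E5.5 sum and 237 and 236 CPM in the 2 E6.5 sums. Within E6.5 the mean was 236 CPM on P1 (2 embryos), 275 CPM on P2 (3), 168 CPM on P3 (3) and 167 CPM in the 4 embryos without a plate name. With those 4 embryos alone as the E6.5 group the log2 fold change from E5.5 was 1.94 with an adjusted p of 0.0674, and with the 8 embryos on P1 to P3 alone it was 2.35 (SE 0.51, adjusted p = 0.00145). Max had a mean of 53.4 CPM in the embryos without a plate name and 27.4 CPM on P1 to P3, a difference that did not pass (log2 difference 0.96, SE 0.47, adjusted p = 0.361). Beyond these names, plate and stage cannot be told apart.

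In endoderm, Mycn ranged from 32.7 to 161 CPM with a median of 117 CPM over the 7 E6.5 sums. Of these, 4 were above every E4.5 PrE-like sum. The log2 fold change from E4.5 PrE-like was 1.07 (SE 0.54, adjusted p = 0.185) and did not pass, against 11.1% of all genes, whereas it passed at 1.34 (adjusted p = 0.0480) when only sums of at least 5 cells were kept. Myc ranged from 0 to 28.2 CPM with a median of 6.40 CPM (0.20, adjusted p = 0.977), and Max from 19.5 to 79.7 CPM with a median of 44.0 CPM (-0.24, adjusted p = 0.848). The change from E4.5 to E6.5 was also set against that of the epiblast in the same fit, and the difference for Mycn was -0.56 (SE 0.72, adjusted p = 0.862), so that the course of Mycn in the 2 lineages was not shown to differ.

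Within E6.5, Mycn was lower in endoderm-like than in epiblast-like sums in 7 of 7 embryos that gave both, by 58.0 to 156 CPM. Of the 7 endoderm-like sums, 5 were below every epiblast-like sum. The log2 fold change was -0.99 (SE 0.44, adjusted p = 0.106) without the block and did not pass, in a comparison in which 14.9% of all genes passed. With the embryo as a replicate block it was -1.11 (SE 0.25, adjusted p = 0.0230) and passed. The block fit held the paired sums alone with its own gene filter, so the 14.9% is not its share of all genes. Its count of passing genes is given with the alternatives below. Myc was lower in 5 of 7 embryos (-1.57, SE 0.68, adjusted p = 0.0969, and -2.18 with an adjusted p of 0.396 with the block). Max was higher in 6 of 7 (0.40, SE 0.38, adjusted p = 0.510). The median of all genes in this comparison was -0.29 under TMM scaling and -0.16 under the size factors of DESeq2. The primitive streak-like sum, with 36.6 CPM of Myc, 128 CPM of Mycn and 46.2 CPM of Max, came from 1 embryo. The E5.5 endoderm-like sum, also of 1 embryo, had 0 Myc reads, 22.9 CPM of Mycn and 59.7 CPM of Max.

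**Figure D2:**
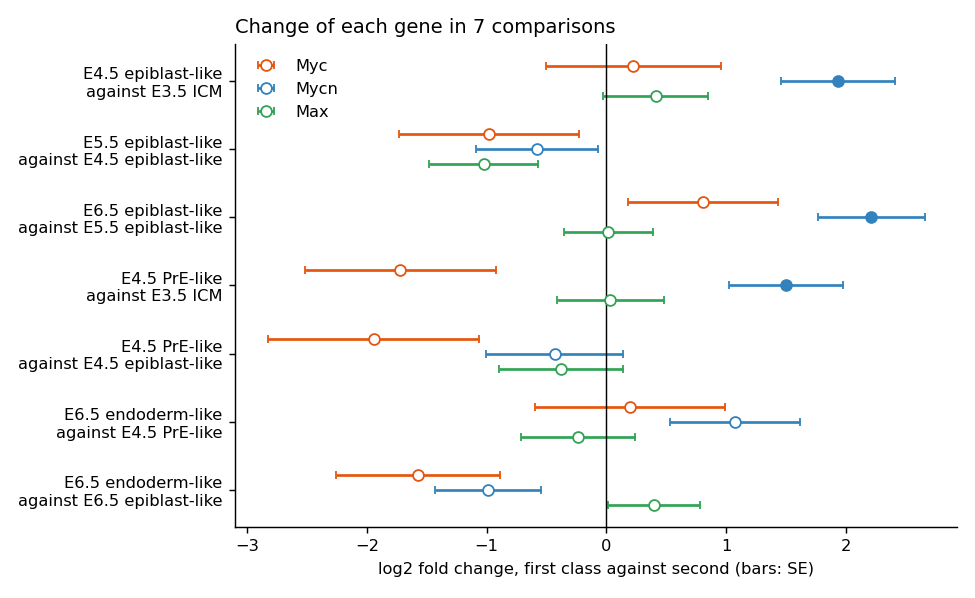
Log2 fold changes with their SE for Myc, Mycn and Max in the 7 comparisons of embryo sums, in the fit without the embryo as a block. Filled points mark those that passed. Mycn is filled in 3 comparisons (1.93, 2.21 and 1.502), and no point of Myc or Max is filled.

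The balance of the paralogs was measured as the Mycn share, the percent of Mycn in the sum of Myc and Mycn counts per kilobase. It was 32.3% ± 23.1 (SD, n = 10) in E3.5 ICM, with values from 0 to 65.2% and a median of 27.5%. The 0%, in embryo 5 on P8, rested on 5 Myc reads of 1 cell. The 65.2%, in embryo 1 on P8, rested on 11 Myc and 25 Mycn reads, for each gene all from 1 cell. Each sum had the same weight in the means and tests. In E4.5 epiblast-like sums it was 51.5, 76.6, 40.7, 38.9 and 69.1% in embryos 1 to 5, and in their PrE-like sums 74.7, 71.7, 83.1, 94.2 and 82.1%. Mycn was thus the larger part in every PrE-like sum, and in E3.5 ICM the median sum had more Myc. In the epiblast the share went on to 66.5% ± 13.1 (n = 8, from 52.9 to 94.2%) at E5.5 and to 84.0% ± 7.99 (n = 12, from 70.5 to 97.9%) at E6.5. E6.5 endoderm-like sums had 87.9% ± 9.73 (n = 7, from 77.9 to 100%), and the primitive streak-like sum had 74.2%.

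The 7 shares were compared by exact two-sided permutation tests over embryos, with Benjamini-Hochberg adjustment over the 7. The share was higher in E4.5 PrE-like than in E3.5 ICM sums by 48.9 points with no overlap of the groups (exact permutation p = 0.000666, adjusted p = 0.00466). It was higher in E6.5 than in E5.5 epiblast-like sums by 17.5 points (exact permutation p = 0.00213, adjusted p = 0.00745), and by 13.3 points (adjusted p = 0.134) with the 4 E6.5 embryos without a plate name alone and 19.6 points (adjusted p = 0.0131) with the 8 on P1 to P3 alone. On P11.P6.P10 the share was 10.4% in the E3.5 sum and 55.3 and 52.9% in the E5.5 sums of embryos 7 and 8. The differences of 23.1 points from E3.5 ICM to E4.5 epiblast-like (exact permutation adjusted p = 0.124) and of 11.1 points from E4.5 to E5.5 epiblast-like (adjusted p = 0.262) did not pass. Between the E4.5 lineages the share was higher in the PrE-like sum of 4 of 5 embryos, by 25.8 points on average (exact permutation adjusted p = 0.0556, and p = 0.125 when paired by embryo, where the smallest p that 5 pairs allow is 0.0625). Without the PrE-like cells of cluster 8 the lineages differed by 34.4 points and passed (exact permutation adjusted p = 0.0370), as they did with Ward clustering. In endoderm the share was 6.78 points higher at E6.5 than at E4.5 (adjusted p = 0.262), a difference that turned to -1.82 points without cluster 8, and 3.92 points higher than in the E6.5 epiblast (adjusted p = 0.348), neither of which passed.

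**Figure D3:**
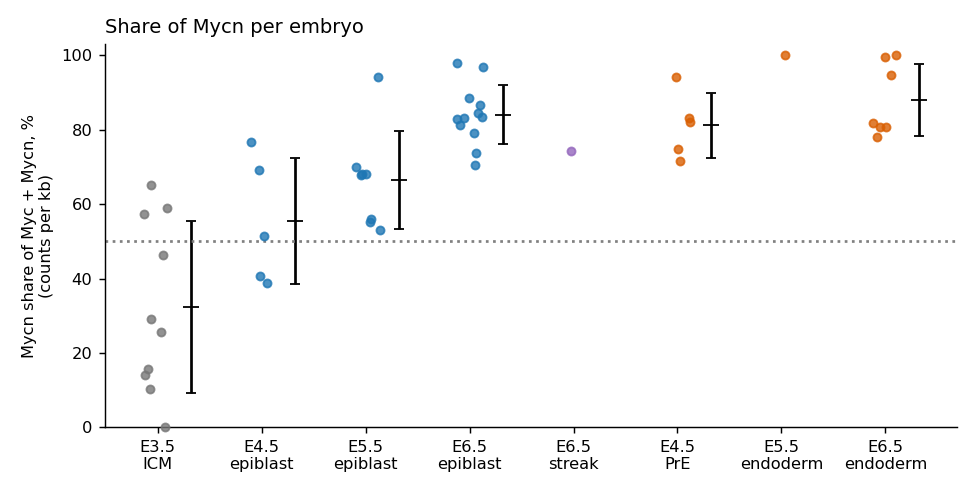
Mycn share in percent of Myc plus Mycn counts per kilobase for each embryo sum (points) by stage and class, with the mean and SD and a dotted line at 50%. The E3.5 sums spread from 0 to 65.2%, and all E4.5 PrE-like, E5.5 and E6.5 sums lie above the line.

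Per kilobase of exon, the mean Mycn level was 5.29 CPM per kb in E3.5 ICM, below the 11.7 CPM per kb of Myc and the 15.2 CPM per kb of Max. In E6.5 epiblast-like sums Mycn was the highest at 62.5 CPM per kb, while Myc at 12.2 CPM per kb and Max at 10.02 CPM per kb differed by less than their spread over embryos. The ratio of Max to the sum of Myc and Mycn per kilobase was 1.46 ± 1.11 in E3.5 ICM, 0.664 ± 0.232 in E4.5 epiblast-like, 0.864 ± 0.199 in E4.5 PrE-like, 0.565 ± 0.279 in E5.5 epiblast-like, 0.150 ± 0.103 in E6.5 epiblast-like and 0.388 ± 0.101 in E6.5 endoderm-like sums (SD over embryos). These ratios describe transcripts, and protein was not measured.

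In single cells the paralogs were compared after each cell was thinned to 300000 counts, which left out 46 shallower cells. Wells titled as doubles were counted as cells. Mycn was detected in 32.6% of E3.5 ICM cells (29 of 89, exact 95% interval 23.0 to 43.3%), in 73.9% of E4.5 epiblast-like cells (17 of 23, 51.6 to 89.8%) and in 71.8% of PrE-like cells (56 of 78, 60.5 to 81.4%). At E5.5 it was detected in 64.9% of epiblast-like cells (163 of 251, 58.7 to 70.8%), with 50 to 84% in single embryos. At E6.5 it was detected in 98.8% of epiblast-like cells (161 of 163, 95.6 to 99.9%) and 90% of endoderm-like cells (36 of 40, 76.3 to 97.2%). These intervals cover counting error only, and cells of an embryo are not replicates. In cells with Mycn the median count was 12 at E3.5, 14 at E5.5 and 58 in E6.5 epiblast-like cells, so that both the share of cells with reads and the reads per such cell were higher at E6.5.

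Myc was detected in 41.6% of E3.5 ICM cells (37 of 89), 78.3% of E4.5 epiblast-like cells (18 of 23), 21.8% of PrE-like cells (17 of 78, 13.2 to 32.6%), 38.2% of E5.5 epiblast-like cells (96 of 251), 63.8% of E6.5 epiblast-like cells (104 of 163) and 50% of E6.5 endoderm-like cells (20 of 40). The median Myc count where detected was 16 at E3.5, 9.5 at E5.5 and 7 in E6.5 epiblast-like cells. Embryos varied widely at E6.5, where 18.8 to 100% of epiblast-like cells of an embryo had Myc reads. Before thinning, Myc was found in 43 of 53, 19 of 19, 4 of 4 and 4 of 4 cells of the embryos without a plate name. In the embryos on P1 to P3 this ran from 5 of 17 to 4 of 5 cells. Max was detected in 75.3 to 95.7% of cells in the 6 classes with several embryos. At each cell's own depth the percentages for Mycn were 31.3, 73.9, 75.6, 68.3, 98.9 and 90.5%, in the same order of classes as above.

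The classes differed in which paralog a cell carried, as a description of cells without a test. At E3.5, 27 of 89 cells had only Myc, 19 only Mycn, 10 both and 33 neither. E4.5 epiblast-like cells mostly had both, with 13 of 23, and 5 had only Myc and 4 only Mycn. PrE-like cells mostly had Mycn alone, with 42 of 78, and 3 had only Myc, 14 both and 19 neither. Without the cells of cluster 8 these were 40, 3, 11 and 9 of 63 PrE-like cells. At E5.5, 91 of 251 epiblast-like cells had only Mycn, 72 both, 24 only Myc and 64 neither. With wells titled as doubles left out, these were 76, 40, 21 and 54 of 191 cells. Of 48 PrE-like cells in single wells 27 had only Mycn, 9 both, 1 only Myc and 11 neither. In the E6.5 epiblast-like class 102 of 163 cells had both, 59 only Mycn, 2 only Myc and 0 neither, which allows a share of up to 1.84%. Of 20 primitive streak-like cells 19 had both, and of 40 E6.5 endoderm-like cells 18 had both and 18 only Mycn. Before thinning, 24 of the 25 streak-like cells came from 1 embryo without a plate name. In embryos without a plate name Myc was also found in more of the epiblast-like cells, as given above. Streak-like cells had a median of 9632 genes detected against 6736 in epiblast-like cells. The part of plate and of genes detected in the streak-like count was not tested.

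**Figure D4:**
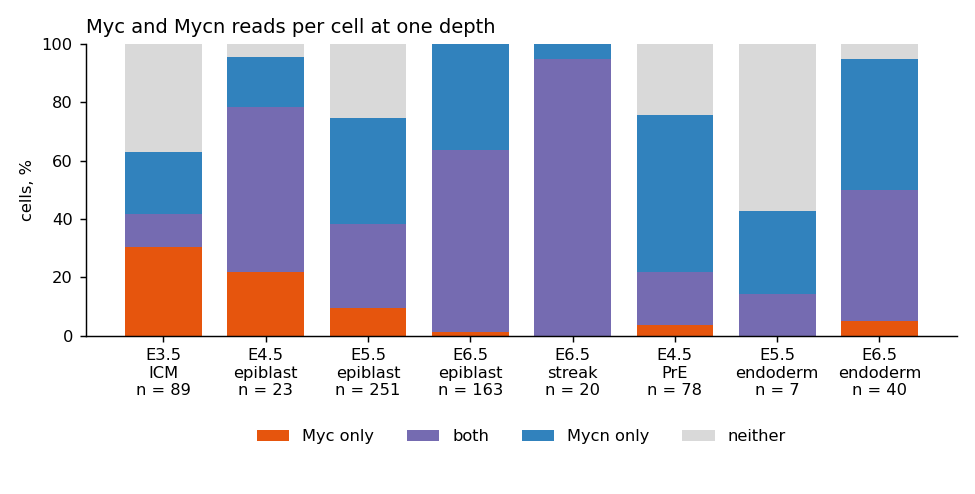
Percent of thinned cells with reads of Myc only, both, Mycn only or neither in each class. Wells titled as doubles are counted as cells. Cells with only Myc make up 30.3% at E3.5 and 1.23% of E6.5 epiblast-like cells, and cells with neither go from 37.1% to 0%.

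Within cells with reads of either paralog, the median Mycn share per kilobase was 4.55% at E3.5, 56.5% in E4.5 epiblast-like cells, 100% in PrE-like, 95.7% in E5.5 epiblast-like, 94% in E6.5 epiblast-like and 96.4% in E6.5 endoderm-like cells. At E3.5, 51.8% of these cells had a share under 10% and 33.9% a share over 90%, so that most cells with reads had mainly 1 paralog. The Spearman correlation of Myc and Mycn over thinned cells was -0.06 at E3.5 (89 cells), 0.04 in E4.5 epiblast-like (23), 0.34 in PrE-like (78), 0.15 in E5.5 epiblast-like (251), -0.02 in E6.5 epiblast-like (163) and 0.09 in E6.5 endoderm-like cells (40). These are descriptions over cells that share embryos and plates, in sparse counts.

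**Figure D5:**
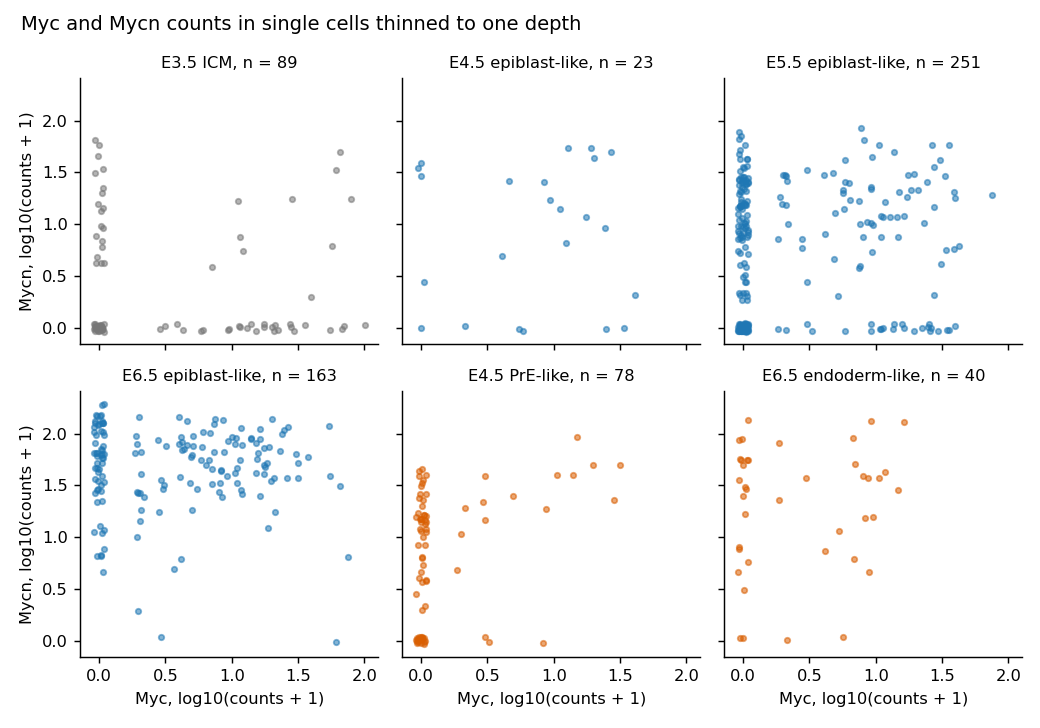
Thinned counts of Myc against Mycn in single cells, as log10 of the count plus 1, for 6 classes. Wells titled as doubles are shown as cells. At E3.5 most cells lie on 1 of the axes, and in the E6.5 epiblast-like panel 161 of 163 cells have Mycn reads while Myc ranges from 0 upward.

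Cell-to-cell variability was measured as log10 of the squared coefficient of variation minus the running median of genes of similar level. Mycn lay above that median in E4.5 epiblast-like cells (0.21, the 85.5th percentile of genes) and near it in epiblast-like cells of E5.5 (-0.04) and E6.5 (-0.04). Myc was at 0.11 in E3.5 ICM and at -0.43 in E6.5 endoderm-like cells, the 3.60th percentile. Max was among the less variable genes at the later stages, with -0.23 in E5.5 epiblast-like, -0.29 in E6.5 epiblast-like and -0.28 in E6.5 endoderm-like cells.

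The wider network and targets of Myc were described by the counts of genes that passed in each direction, to be read against all 17031 genes tested. Of these, 12.6% rose and 6.37% fell from E3.5 ICM to E4.5 epiblast-like sums, 2.38% and 2.92% from E4.5 to E5.5 epiblast-like, and 5.39% and 5.77% from E5.5 to E6.5 epiblast-like. In PrE-like against E3.5 ICM sums 13.3% rose and 4.74% fell, between the E4.5 lineages 2.52% and 1.22%, from PrE-like to E6.5 endoderm-like 3.77% and 7.36%, and between the E6.5 lineages 6.28% and 8.66%. The lists were drawn from general knowledge of Myc. Counts of list genes at an unadjusted p under 0.05 are given below without the share of all genes at that limit. They therefore do not show that a list differs from all genes.

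The other genes of the Myc network, those that pair with Max or with its relative Mlx, seldom passed. Of 10 tested, 0 passed by edgeR in 6 of the 7 comparisons, where at most 2 had an unadjusted p under 0.05 and at most 2 passed by DESeq2. In PrE-like against E3.5 ICM sums 2 passed, which at 20% of the list was near the 18.1% of all genes. Both are repressors that pair with Max: Mxd1 with 2.43 against 0.0890 CPM (log2 fold change 4.501, SE 1.39, adjusted p = 0.0176) and Mxd4 with 12.0 against 0.600 CPM (4.16, SE 1.37, adjusted p = 0.0262). At E3.5, 7 of 10 sums had 0 Mxd1 reads and 8 of 10 had 0 Mxd4 reads. The median log2 fold change of the list was 0.72 from E3.5 ICM to E4.5 epiblast-like and -0.31 from E5.5 to E6.5 epiblast-like sums, beside medians of 0 for all genes in both. In the other 5 comparisons it lay between -0.14 and 0.40.

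Genes that partner with Myc or set its stability include deubiquitinases and ubiquitin ligases. From E3.5 ICM to E4.5 epiblast-like, 3 of 20 rose and 0 fell (15.0% against 18.9% of all genes), with a median of 0.01 beside 0 for all genes. Usp28, a deubiquitinase that protects Myc from degradation, went from 20.0 to 133 CPM (log2 fold change 2.73, SE 0.61). Usp36, a nucleolar deubiquitinase that also acts on Myc, went from 12.7 to 69.8 CPM (2.46, SE 0.59). Ppp2r5a was the other gene of the list that rose (1.69, SE 0.53). Usp36 also rose in PrE-like against E3.5 ICM sums (2.33, SE 0.59), where Wdr5 fell (-1.43, SE 0.36). In the E4.5 PrE-like sums Usp28 was at 14.0 CPM, lower than in the epiblast-like sums by a log2 fold change of -3.24 (SE 0.79, adjusted p = 0.00826), and at E6.5 it was again lower in endoderm-like sums, at 14.1 against 64.9 CPM (-2.18, SE 0.60, adjusted p = 0.0110). From E5.5 to E6.5 epiblast-like, 2 rose and 2 fell (20% of the list against 11.2% of all genes). Gsk3b, a kinase that marks Myc for degradation, went from 76.2 to 289 CPM (1.92, SE 0.32) and Skp2, a ubiquitin ligase subunit, from 41.0 to 109 CPM (1.41, SE 0.46). Zbtb17, the partner through which Myc represses genes, went from 44.5 to 9.29 CPM (-2.25, SE 0.66), and Ruvbl2, a helicase-like cofactor, from 773 to 372 CPM (-1.05, SE 0.24). The median of this comparison was -0.25 beside 0. In the other 5 comparisons at most 1 of the 20 rose and at most 2 fell, with medians from -0.34 to 0.07.

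Few of the 36 Myc target genes of the nucleolus and ribosome biogenesis passed in any comparison. From E3.5 ICM to E4.5 epiblast-like 1 of 36 rose (Exosc5, an exosome subunit, 131 to 363 CPM) and 0 fell (2.78% against 18.9% of all genes). The median was 0.08 beside 0 for all genes, and 7 of the 36 had an unadjusted p under 0.05. From E5.5 to E6.5 epiblast-like 0 rose and 2 fell (5.56% against 11.2%), Exosc5 (-1.31, SE 0.30) and Bop1 (-1.12, SE 0.38). The median was -0.09 beside 0, and 10 of the 36 had an unadjusted p under 0.05. In PrE-like against E3.5 ICM sums 3 fell (Polr1b, Ubtf and Wdr74, from -1.77 to -1.21) and 0 rose (8.33% against 18.1%). The median was -0.21 beside 0.14, with 9 at an unadjusted p under 0.05. In E6.5 endoderm-like against epiblast-like sums 3 fell (Wdr74, Fbl and Rrp9) and 0 rose (8.33% against 14.9%), and the median was -0.61 beside -0.29. Here 19 of the 36 had an unadjusted p under 0.05 and 3 of the 36 had a log2 fold change above 0. The shares of all genes for these 2 counts are not given. From E4.5 to E5.5 epiblast-like and between the lineages of E4.5, 0 of 36 passed by edgeR, with 5 at an unadjusted p under 0.05 in each and 0 by DESeq2 (medians 0.33 beside 0.25 and -0.28 beside 0.05). From E4.5 PrE-like to E6.5 endoderm-like 1 fell (2.78% against 11.1%), the nucleolar methyltransferase gene Fbl (48.0 to 11.9 CPM, -2.02, SE 0.46). The median was -0.07 beside -0.10, with 6 at an unadjusted p under 0.05.

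Of 35 Myc targets of metabolism and mitochondria, 6 rose and 0 fell from E3.5 ICM to E4.5 epiblast-like (17.1% against 18.9% of all genes), with a median of 0.38 beside 0. Ldha, lactate dehydrogenase A, went from 21.1 ± 31.4 to 2178 ± 579 CPM (log2 fold change 6.66, SE 0.63), and Eno1, a glycolytic enolase, from 68.7 ± 30.4 to 776 ± 289 CPM (3.49, SE 0.23). Slc7a5, an amino acid transporter, went from 14.1 to 80.7 CPM (2.51, SE 0.73). In PrE-like against E3.5 ICM sums 8 rose and 2 fell (28.6% against 18.1%), with Ldha at 2899 CPM (7.07, SE 0.64) a list median of 0.28 beside 0.14, and the transferrin receptor Tfrc lower, at 12.6 against 75.3 CPM (-2.57, SE 0.67). From E4.5 to E5.5 epiblast-like 1 rose (2.86% against 5.30%), Eno1, to 2701 CPM (1.80, SE 0.26), and the median of the list was 0.36 beside 0.25. From E5.5 to E6.5 epiblast-like 1 rose and 4 fell (14.3% against 11.2%), with a median of -0.22 beside 0. The lactate transporter Slc16a1 rose (80.1 to 322 CPM, 2.01, SE 0.33). Among those that fell were the serine and glycine enzyme Shmt2 (-1.90, SE 0.50), Tbrg4 and Slc3a2. In E6.5 endoderm-like sums Slc16a1 reached 1700 ± 247 CPM, above epiblast-like sums (2.40, SE 0.31) and above E4.5 PrE-like sums (3.79, SE 0.46), while Slc7a5 was lower than in both (-2.28 and -2.70). In the comparison with epiblast-like sums 2 of the 35 rose and 5 fell (20% against 14.9%, median -0.51 beside -0.29). In that with PrE-like sums 3 rose and 3 fell (17.1% against 11.1%, median -0.16 beside -0.10). Between the lineages of E4.5 only Tfrc passed (2.86% against 3.73%), lower in PrE-like sums (-2.93, SE 0.73, median of the list -0.09 beside 0.05).

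Cell cycle targets included the cyclin D genes. From E3.5 ICM to E4.5 epiblast-like 5 of 14 rose and 1 fell (42.9% against 18.9% of all genes), with a median of 0.66 beside 0. Ccnd1 went from 7.75 to 142 CPM (log2 fold change 4.20, SE 0.51), Cks1b from 318 to 967 CPM (1.61, SE 0.18), and Ccnd2 from 0 reads in all 10 E3.5 sums to 8.06 ± 16.7 CPM with 3 of 5 sums at 0. Cdc25a, a phosphatase that activates cyclin-dependent kinases, fell from 160 to 66.0 CPM (-1.28, SE 0.38). In PrE-like against E3.5 ICM sums 2 rose and 1 fell (21.4% against 18.1%, median 0.36 beside 0.14), with Cks1b higher (1.21, SE 0.18) and Cdc25a lower (-1.64, SE 0.38). Between the E4.5 lineages 1 passed (7.14% against 3.73%), Ccnd1, at 19.6 CPM in PrE-like sums (-2.87, SE 0.62, median of the list -0.38 beside 0.05). From E4.5 to E5.5 and from E5.5 to E6.5 epiblast-like 0 of 14 passed by edgeR, with 3 and 5 at an unadjusted p under 0.05 and 0 and 1 by DESeq2 (medians 0.54 beside 0.25 and 0.23 beside 0). In E6.5 endoderm-like against epiblast-like sums 4 fell and 0 rose (28.6% against 14.9%, median -0.76 beside -0.29), among them Ccnd2 (-3.00, SE 1.04), Ccnd1 (371 to 55.4 CPM, -2.74, SE 0.50) and E2f1 (-2.54, SE 0.83). From E4.5 PrE-like to E6.5 endoderm-like Cdc25a rose (1.25, SE 0.39) and Plk1, a mitotic kinase, fell (-1.76, SE 0.47). These were 14.3% of the list against 11.1% of all genes, with a median of 0.28 beside -0.10.

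Of 13 genes that Myc is known to repress, 2 rose and 3 fell from E3.5 ICM to E4.5 epiblast-like (38.5% against 18.9% of all genes), with a median of -1.73 beside 0. The thioredoxin inhibitor gene Txnip rose (0.422 to 30.3 CPM, log2 fold change 6.03, SE 1.11), as did the cell cycle inhibitor gene Cdkn1c, whereas the stress gene Gadd45g (184 to 11.2 CPM, -4.01, SE 1.45), the cell cycle inhibitor gene Cdkn1b and Klf6 fell. From E5.5 to E6.5 epiblast-like Cdkn1b rose (10.5 to 45.8 CPM, 2.12, SE 0.62), and Cdkn2b and Cdkn2c passed as lower with 0 reads in all 12 E6.5 sums and at most 0.840 CPM on average at E5.5. These calls made up 23.1% of the list against 11.2% of all genes. Between the E4.5 lineages 1 rose and 1 fell (15.4% against 3.73%). Klf6 was higher in PrE-like than in epiblast-like sums (296 against 53.8 CPM, 2.46, SE 0.58), and Ndrg2 passed as lower, with 0 reads in all 5 PrE-like sums against 2.16 CPM. At E6.5, 2 were higher in endoderm-like than in epiblast-like sums and 0 lower (15.4% against 14.9%). These were Klf6 (119 against 45.1 CPM, 1.40, SE 0.40) and Cdkn2b, at 0.539 CPM with 6 of 7 endoderm-like sums at 0. In PrE-like against E3.5 ICM sums Txnip rose, and Cdkn1a and Ndrg2 fell (23.1% against 18.1%). From PrE-like to E6.5 endoderm-like Ndrg2 rose and Cdkn2c fell (15.4% against 11.1%). From E4.5 to E5.5 epiblast-like 0 of 13 passed by edgeR, with 7 at an unadjusted p under 0.05 and 1 by DESeq2. The medians of the later comparisons were 1.28 beside 0.25 from E4.5 to E5.5 epiblast-like, -1.34 beside 0 from E5.5 to E6.5 epiblast-like, 0.14 beside 0.14 in PrE-like against E3.5 ICM, 1.52 beside 0.05 between the E4.5 lineages, 0.23 beside -0.10 from PrE-like to E6.5 endoderm-like and -0.09 beside -0.29 between the E6.5 lineages. With the genes at 0 in a whole group set at the bound that 3 counts over the group allow, the medians between lineages were 1.08 at E4.5 and -0.13 at E6.5.

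Over all 49 sums, the genes whose log2 level was most alike that of each member were named among 8429 genes with a mean of at least 10 CPM. For Mycn these were Gm16477 (Pearson r = 0.83), Ttc3 (0.82) and Smurf2 (0.81). Ttc3 went from 29.2 CPM in E3.5 ICM to 344 CPM in E6.5 epiblast-like sums, and Smurf2, a ubiquitin ligase of the TGF-beta pathway, from 4.07 to 61.7 CPM. For Myc the correlations were weaker, with Rdbp (0.60), Ubac2 (0.59) and Nacc1 (0.59), and for Max the genes were Tle1 (0.71), 0610009O20Rik (0.62) and Pigk (0.62). Among the members r was 0.22 for Myc and Mycn, 0.19 for Myc and Max and 0.01 for Mycn and Max. The sums share plates, stages and depth, and these values are descriptions.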

How the data were processed

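The deposited table held, per the labels and the authors' methods, unnormalized read counts per gene for 721 wells that had passed the authors' quality filter. Per the submitters' processing notes reads were trimmed with Trim Galore 0.4.3 and aligned to GRCm38 with HISAT2 2.0.5. Counting was per gene without molecular identifiers, so amplified copies of a molecule count as separate reads. No 2 columns held identical counts. Positions and exon lengths were taken from GENCODE vM21, which matched 23471 of 24483 rows.

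Cell classes of the study were not used here. Classes were rebuilt by consensus k-means clustering (8 clusters of all cells, 5 of the E6.5 cells, genes detected in 6 to 94% of cells) and named from markers, so a class may differ from that of the study, which left out E4.5 cells that expressed markers of both lineages; these were kept here. No doublet caller was run, and the 128 wells titled as doubles were kept and left out in an alternative.

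Counts were summed per class and embryo (at least 3 cells), scaled by TMM and tested with edgeR 4.0.16 (R 4.3.3) in 1 quasi-likelihood fit over all classes, after filterByExpr, which keeps many low genes because 2 classes have 1 sum. Alternatives were DESeq2 1.42.0, its size factors, no filter, single wells only, Ward clustering, at least 5 cells per sum, E6.5 embryos with or without a plate name alone, leaving out each E4.5 embryo and, added later, leaving out the PrE-like cells of cluster 8. The scripts were tested on simulated data. The study equates its batches with litters and the labels name plates, so embryos of a plate may share a litter. The tests treat embryos as independent, and p-values may then be too small. Within E4.5 and within E6.5 the 2 lineages came from the same embryos: the deviations of the 2 sums of an embryo from their class means correlated at 0.021 to 0.106 over 5 pairs and at 0.031 to 0.294 over 7 pairs, and the embryo was a block in a second fit of these comparisons.

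The members and the gene lists were chosen with earlier results of these data known to exist. The members were taken by symbol and the lists were written from general knowledge of Myc, not from values. Of the lists, genes were named within each list where they were among the up to 3 largest rises or drops that passed, and for each member the 3 genes with the highest Pearson correlation of log2(CPM + 1) were named.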

Additional observations from a re-analysis of the deposited data

Results flagged for a closer look

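Of 20 groups of 4 to 10 sums examined for a value far from the others, 2 were flagged, where chance flags about 1 in 20. Mycn was at 151.45 CPM in the E4.5 epiblast-like sum of embryo 2 on P1, a sum of 3 cells, whereas the other 4 embryos had 25.9 to 60.8 CPM. The Mycn share was 94.201% in the E5.5 epiblast-like sum of embryo 6 on P7.P4.P5, a sum of 30 cells, whereas the other 7 embryos had 52.9 to 69.8%. Its Mycn level of 37.1 CPM was inside the range of the class, and its Myc level of 1.88 CPM was the lowest of the class.

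Reads of the members were also found in cells that entered no comparison, above the 3 counts that a count of 0 allows. The 4 unnamed cells had 22 reads of Myc, 557 of Mycn and 148 of Max. The 8 E5.5 endoderm-like cells had 10 reads of Myc, all in 1 cell, 216 of Mycn in 5 cells and 504 of Max in 8 cells. The 25 primitive streak-like cells had 641 reads of Myc, 2364 of Mycn and 838 of Max, and Mycn and Max were detected in all 25.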

How the results depend on the processing

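Of 255 values of single members, 230 kept their direction and side of the threshold, as did 72 of 85 counts of genes within 1.5 times, 63 of 71 share differences, 74 of 75 detection rates, 16 of 17 co-detection rates and 17 of 17 variability values. The cause was not tested for those that did not. Counts that passed moved from 3224 to 1702 with at least 5 cells per sum (E3.5 ICM to E4.5 epiblast-like), from 1900 to 1263 under DESeq2 and 347 with the E6.5 embryos without plate name alone (E5.5 to E6.5 epiblast-like), from 636 to 1105 under DESeq2 and 338 to 382 without 1 E4.5 embryo (E4.5 lineages), from 1896 to 468 without plate name (E6.5 endoderm-like against PrE-like), and from 2544 to 1298 on P1 to P3, 334 without plate name and 560 with the embryo as a replicate block, which tested 9447 genes (E6.5 lineages). Higher and lower calls were 2139 and 1085 from E3.5 ICM to E4.5 epiblast-like (1685 and 1493 under DESeq2), 405 and 497 from E4.5 to E5.5 (706 and 453) and 918 and 982 from E5.5 to E6.5 (733 and 530).

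For Mycn, the log2 fold change was 1.94 without plate name (E5.5 to E6.5), 1.23 to 1.65 without 1 E4.5 embryo (PrE-like against E3.5 ICM), 0.0722 with at least 5 cells and -0.84 to 0.25 without 1 E4.5 embryo (E4.5 lineages), 1.34 with at least 5 cells (endoderm-like against PrE-like) and -1.11 with the replicate block (E6.5 lineages). For Myc it was -0.0328 with at least 5 cells (E3.5 ICM to E4.5 epiblast-like), -1.78 under DESeq2 (PrE-like against E3.5 ICM), -2.19 with the replicate block (E4.5 lineages), and -0.29 with single cells only, -0.81 on P1 to P3 and -0.00094 to 0.47 without 1 E4.5 embryo (endoderm-like against PrE-like). For Max it was -0.00078 with single cells only, -0.13 with Ward clustering, -0.18 with at least 5 cells and -0.38 on P1 to P3 (E5.5 to E6.5), -0.028 under DESeq2, -0.027 under its size factors in edgeR, -0.017 with single cells only, -0.0028 with Ward clustering, -0.12 with at least 5 cells and -0.13 to 0.19 without 1 E4.5 embryo (PrE-like against E3.5 ICM), and 0.27 without plate name (endoderm-like against PrE-like). The replicate block changed no other call of a member.

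The Mycn share differed by 13.3 points without plate name (E5.5 to E6.5), by 33.1 points with Ward clustering, 34.4 points without PrE-like cells of cluster 8 and 28.6 points from the mean CPM of cells (E4.5 lineages, all passing), by -2.34 points with Ward clustering, -1.82 points without cluster 8 and -1.34 points without plate name (endoderm-like against PrE-like), and by -0.0276 points without plate name (E6.5 lineages). Max was detected in 66.4% of E5.5 epiblast-like cells at 10 CPM or more, and both paralogs in 20.9% of them with single cells only.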

Other observations

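Mycl, the third Myc paralog (row Mycl1), was examined after its values were seen. Its mean level was 16.7 ± 14.7 CPM in E3.5 ICM (SD, n = 10), 13.4 ± 9.03 CPM in E4.5 epiblast-like (n = 5), 7.27 ± 5.52 CPM in E4.5 PrE-like (n = 5), 29.2 ± 9.41 CPM in E5.5 epiblast-like (n = 8), 17.7 ± 15.8 CPM in E6.5 epiblast-like (n = 12) and 14.6 ± 20.4 CPM in E6.5 endoderm-like sums (n = 7). It passed in 0 of 7 comparisons, with edgeR adjusted p-values from 0.483 to 0.959, in 0 of 7 at an unadjusted p under 0.05 and in 0 of 7 by DESeq2. In thinned cells it was detected in 24.7, 34.8, 24.4, 49.4, 59.5 and 27.5% of the cells of these classes. Per kilobase of exon its mean of 7.24 CPM in E5.5 epiblast-like sums was close to the 6.95 CPM of Myc in the same sums.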
